A study of Mus musculus with 12 samples.

Results

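Hepatokines are proteins that the liver secretes into the blood to inform other tissues of its nutritional state. Described here are 9 genes of fasting and feeding, chosen by name from the 48795 genes of the count table: 8 encode secreted proteins (Fgf21, Gdf15, Inhbe, Angptl4, Angptl6, Angptl8, Fetub and Ahsg), and Creb3l3 encodes CREBH, a transcription factor of hepatocytes. All 9 had enough counts to be tested, among 13812 genes that did. RNA was sequenced from the livers of 12 female mice aged 4 months, littermates on normal chow, with 3 mice in each group. Nts+/+ mice 254, 257 and 323 were fed ad libitum, whereas Nts+/+ mice 265, 282 and 322 had been without food for 22 h. Likewise, Nts-/- mice 277, 303 and 319 were fed, and Nts-/- mice 284, 290 and 295 were without food for the same time. Nts encodes neurotensin, a gut and brain peptide, and the Nts-/- mice are described as lacking the gene in the whole animal rather than in the liver alone. All 12 samples carry the same batch year.

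FGF21 is a hormone that the liver releases in fasting and under nutrient stress, and it acts through FGF receptors together with the co-receptor beta-Klotho. Its gene is a classical target of PPARα, the nuclear receptor that fatty acids activate in the fasting liver, and CREBH is known to act with PPARα on it. The angiopoietin-like proteins ANGPTL4 and ANGPTL8 restrain lipoprotein lipase. ANGPTL4 is known as the fasting-induced member, and ANGPTL8 as the feeding-induced member. GDF15 is a stress hormone that reduces food intake through the hindbrain receptor GFRAL. Inhbe encodes the subunit of activin E, a member of the TGF-β family made mainly by hepatocytes. The fetuins, encoded by Ahsg and Fetub, are abundant plasma glycoproteins.

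The promoters of Fgf21, Angptl8 and Inhbe are shown because each holds the same 8 bases, TGATGCAA, which is a form of the composite element bound by ATF4 with C/EBP factors, the effectors of the integrated stress response. Capitals mark these bases, read on either strand, in 98 bases of RefSeq sequence (GRCm38.p6), printed 5′ to 3′ along the strand of the gene. The stretches are chr7:45615577-45615674 on the minus strand for Fgf21, chr9:21835335-21835432 on the plus strand for Angptl8 and chr10:127351977-127352074 on the minus strand for Inhbe.
Fgf21: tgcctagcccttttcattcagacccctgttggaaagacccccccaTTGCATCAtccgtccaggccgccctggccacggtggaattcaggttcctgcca
Angptl8: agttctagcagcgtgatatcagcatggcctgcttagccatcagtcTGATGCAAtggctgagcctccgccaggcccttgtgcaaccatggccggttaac
Inhbe: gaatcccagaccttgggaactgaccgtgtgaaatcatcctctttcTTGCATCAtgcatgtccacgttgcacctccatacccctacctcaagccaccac
The match lay 139 to 132 bases before the RefSeq transcription start of Fgf21 and 130 to 123 bases before that of Angptl8. It lay 181 to 174 bases before that of Inhbe, a start upstream of the Inhbe gene span given below.

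Promoter windows, which are the 250 bases before a start, were found for 8 of the 9 genes, all but Angptl4. They number 11, since some genes have several RefSeq starts, and each match was found in a single window of its gene. TGATGCAA was present in 0.791% of the 32851 windows in the reference table and in the windows of 0.918% of the 27025 genes. The motifs were searched on both strands and were chosen after these promoters had been read, so the 3 matches are a description. Other motifs were present in fewer of the promoters. The E-box CACGTG, a site of carbohydrate-responsive and clock factors, occurred in Fgf21 at 50 to 45 bases before the start and in Gdf15 at 83 to 78 bases, and in 6.02% of all windows. The RefSeq start used for Gdf15 lies inside its gene span given below, so the E-box of Gdf15 is within that span. TATAAA occurred in Fgf21 and Fetub, and in 12.4% of all windows. The cAMP response element TGACGTCA was found in 1.55% of all windows. The nuclear receptor repeat DR1, which is AGGTCA repeated after a spacer of any base, was found in 0.0335%. Neither was in any window of these genes. Only exact matches were counted. Exact DR1 was so rare that its absence was likely in advance, and inexact sites were not searched. No match overlapped another.

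The libraries held between 21999647 and 45273069 counts, so 3 counts correspond to between 0.0663 and 0.136 CPM (counts scaled to the total of the library). Levels below are CPM after TMM normalization, which corrects for differences in RNA composition. The targeted gene was checked first. Nts was at 0 counts in all 6 libraries labelled Nts+/+, while those labelled Nts-/- held 46, 40 and 15 counts when fed and 12, 4 and 18 when fasted. The targeted gene therefore went against the labels, and genotypes below refer to libraries labelled so. The 6 hepatocyte markers were abundant in every library (108810 to 139703 CPM in sum). The adipocyte markers summed to at most 0.260 CPM, with Lep at 0. Skeletal muscle markers summed to at most 0.0403 CPM, with Acta1 and Myh4 at 0. Intestine markers summed to at most 0.295 CPM, with Cdx1, Cdx2 and Sis at 0 and Vil1 at 1 to 8 counts. Of the 5 exocrine pancreas markers, Cpa1, Pnlip and Ctrb1 were at 0, and Prss2 had at most 1 count. The sum of the list was 7.49 to 13.3 CPM in fed and 2.66 to 5.45 CPM in fasted livers. It was almost all Cela1, which had 70 to 471 counts, so it is the level of 1 gene and not of a cell type. Sinusoidal endothelial markers summed to 151 to 219 CPM in fed and 124 to 149 CPM in fasted livers, and Kupffer cell markers to 388 to 445 CPM in Nts+/+ fed against 195 to 343 CPM in the other groups. The part of these shifts in the results was not tested. In bulk liver, fewer cells of a type and less RNA per cell cannot be told apart.

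Fasting changed 6 of the 9 genes in the mean of both genotypes (edgeR quasi-likelihood test, Benjamini-Hochberg adjusted p under 0.05 over all genes tested). Fgf21, Inhbe, Angptl4 and Creb3l3 rose, while Angptl8 and Angptl6 fell. Gdf15, Fetub and Ahsg did not pass. Among all genes tested, 16.0% rose and 16.8% fell in this comparison. The median log2 fold change of the 9 genes was 0.23, beside -0.01 for all genes tested. In 4 of the 9 genes, Fgf21, Inhbe, Angptl4 and Creb3l3, all 6 fasted livers lay above all 6 fed livers, and 15.9% of all genes tested showed no overlap of this kind in either direction. Leaving out any 1 of the 12 mice retained all 6 calls.

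**Figure D1:**
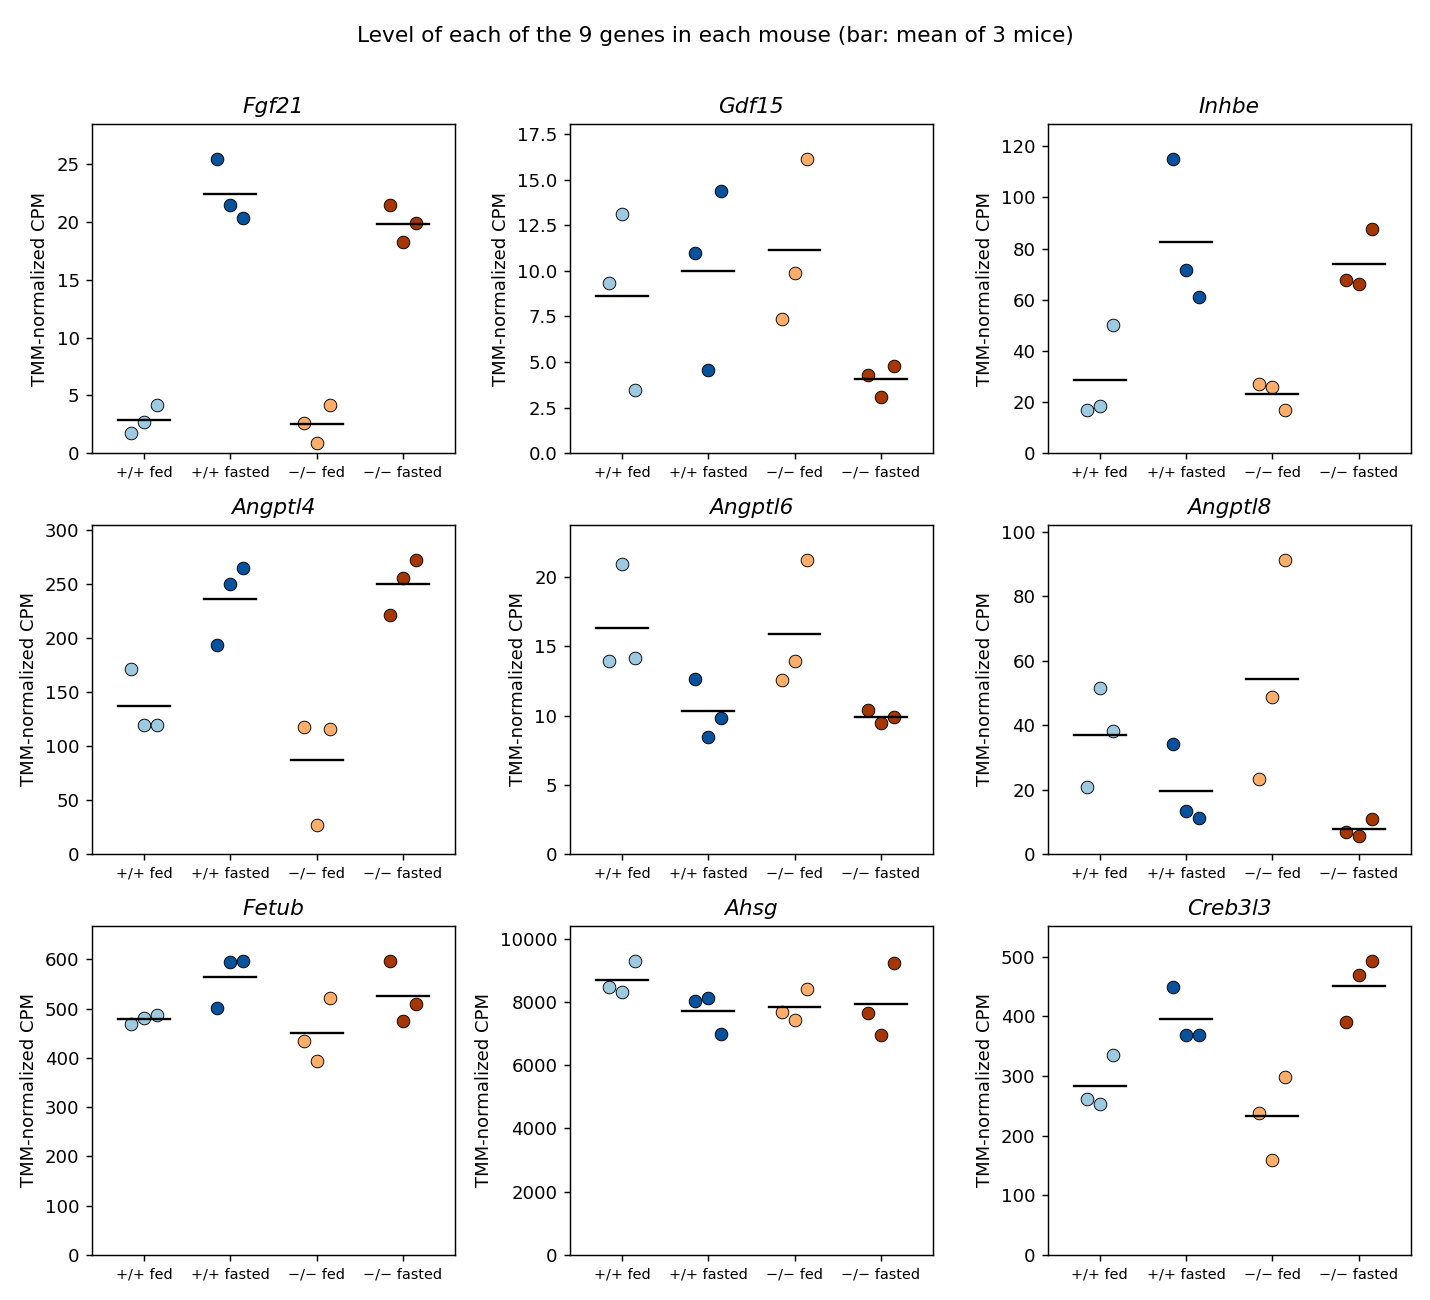
Level of each gene in every mouse as TMM-normalized CPM (y axes start at 0 and differ between panels), by group on the x axis, where +/+ and −/− are the Nts labels. Points are mice and bars are means of 3 mice. Fgf21 lies between 0.869 and 4.21 CPM in the fed mice and between 18.2 and 25.4 CPM in the fasted mice, while Ahsg stays between 6975 and 9305 CPM.

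Fgf21 had the largest fasting response of the 9 genes. In Nts+/+ livers it was 1.77, 2.72 and 4.21 CPM when fed and 25.4, 21.5 and 20.3 CPM when fasted. In Nts-/- livers it was 2.62, 0.869 and 4.15 CPM when fed and 21.5, 18.2 and 19.9 CPM when fasted. The lowest fasted liver, at 18.2 CPM, was thus far above the highest fed liver, at 4.21 CPM, and the ranges under both labels were alike. The fed groups were also the more variable, with a coefficient of variation of 42.4% and 64.5% when fed, against 12.0% and 8.20% when fasted. The lowest fed value, in mouse 303, rested on 24 counts. Fasting raised Fgf21 by 2.96 ± 0.30 on the log2 scale (SE, n = 6 against 6, adjusted p = 4.23e-05), or 7.80-fold with a 95% confidence interval of 4.92 to 12.4. The rise was 2.96 ± 0.43 in Nts+/+ (adjusted p = 0.00129) and 2.97 ± 0.43 in Nts-/- livers (adjusted p = 0.00113), with n = 3 against 3 in each. Fgf21 (ENSMUSG00000030827) lies at chr7:45613886-45615490 (GRCm38).

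Inhbe, the activin E subunit, was 16.8, 18.4 and 50.1 CPM in Nts+/+ fed livers and 115, 71.6 and 61.0 CPM in Nts+/+ fasted livers. In Nts-/- livers it was 27.0, 25.8 and 17.0 CPM when fed and 67.7, 65.9 and 87.7 CPM when fasted. Mouse 323 stood above the other fed mice, and no fed liver reached the fasted range. Inhbe rose by 1.60 ± 0.30 on the log2 scale in the mean of both genotypes (adjusted p = 0.00256), or 3.03-fold (95% confidence interval 1.92 to 4.80). Within genotypes the change was 1.54 ± 0.42 in Nts+/+ (adjusted p = 0.0311) and 1.66 ± 0.42 in Nts-/- livers (adjusted p = 0.0236). The call within Nts+/+ was lost without mouse 254, 257, 265 or 282, and that within Nts-/- without any one of its 6 mice, with adjusted p between 0.0517 and 0.0972 and log2 changes between 1.24 and 1.79. It was also lost with no filter (adjusted p = 0.0738 in Nts+/+ and 0.0579 in Nts-/-) and, in Nts+/+, with only the mice compared (0.117), whereas without mouse 323 the Nts+/+ change was 2.23 (0.000639). Inhbe (ENSMUSG00000047492) lies at chr10:127349402-127351772.

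Gdf15, the stress hormone, showed no common direction. It was 9.31, 13.1 and 3.46 CPM in Nts+/+ fed livers and 11.0, 4.56 and 14.4 CPM in Nts+/+ fasted livers, so that these groups overlapped. The Nts-/- mice had 7.38, 9.88 and 16.1 CPM when fed and 4.31, 3.07 and 4.80 CPM when fasted, with every fasted value below every fed value. The log2 change with fasting was 0.20 ± 0.51 in Nts+/+ (adjusted p = 0.822) and -1.44 ± 0.53 in Nts-/- livers (adjusted p = 0.0933). In the mean of both genotypes it was -0.62 ± 0.37 (adjusted p = 0.231). The Nts-/- change passed with only those 6 mice fitted (adjusted p = 0.0170) and in no other alternative run. Gdf15 (ENSMUSG00000038508) lies at chr8:70629393-70632456.

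Angptl4, the inhibitor of lipoprotein lipase, was 171, 119.9 and 119 CPM in Nts+/+ fed livers and 194, 250.4 and 266 CPM in Nts+/+ fasted livers. The Nts-/- mice had 118, 27.0 and 116 CPM when fed and 222, 256 and 273 CPM when fasted. The fed value of mouse 303, which was also lowest in Fgf21 and Creb3l3, was far below the other fed values. Angptl4 rose by 1.16 ± 0.31 on the log2 scale in the mean of both genotypes (adjusted p = 0.0162), or 2.23-fold (95% confidence interval 1.39 to 3.59). It was 0.79 ± 0.43 in Nts+/+ (adjusted p = 0.240), which did not pass, and 1.52 ± 0.44 in Nts-/- livers (adjusted p = 0.0400), which did. Without mouse 303 the Nts-/- change was 1.11 and still passed. The Nts-/- call was lost without mouse 277, 284, 290 or 295 (adjusted p from 0.0565 to 0.0960), with library totals alone (0.0601), with no filter (0.102) and with only the 6 mice compared (0.120). With only the 6 mice compared, the Nts+/+ change passed instead (adjusted p = 0.0213). Angptl4 (ENSMUSG00000002289) lies at chr17:33773750-33781575.

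Angptl8, the feeding-induced angiopoietin-like gene, went the other way. It was 20.8, 51.6 and 38.1 CPM in Nts+/+ fed livers and 34.1, 13.5 and 11.2 CPM in Nts+/+ fasted livers. Under the Nts-/- label it was 23.3, 48.7 and 91.3 CPM when fed and 6.83, 5.50 and 11.0 CPM when fasted. The Nts+/+ groups overlapped through mouse 265, whose fasted value was inside the fed range, while the Nts-/- groups did not overlap. Angptl8 fell by 1.86 on the log2 scale in the mean of both genotypes (SE 0.44, adjusted p = 0.0109), or 3.62-fold (95% confidence interval 1.82 to 7.21). The change was -0.92 ± 0.60 in Nts+/+ (adjusted p = 0.329) and -2.79 ± 0.64 in Nts-/- livers (adjusted p = 0.0184). The Nts-/- call was lost without mouse 284 or 290 (adjusted p = 0.0706 and 0.0737), and without mouse 319 the change was -2.19.

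Angptl8 (ENSMUSG00000047822, chr9:21835510-21837346) lies within the span of Dock6, and whether strand was used in counting is not given in the sources used here. Dock6 itself was 7.85 to 20.5 CPM in fed and 4.82 to 6.28 CPM in fasted livers, with no overlap. The expected counts of Angptl8 were whole numbers in every mouse, so no divided reads show in them. The part of Dock6 in the Angptl8 values was not tested.

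Angptl6, a hepatocyte angiopoietin-like protein tied to energy expenditure, was 13.9, 20.9 and 14.2 CPM in Nts+/+ fed livers and 12.6, 8.46 and 9.84 CPM in Nts+/+ fasted livers. Under the Nts-/- label it was 12.6, 13.9 and 21.2 CPM when fed and 10.4, 9.44 and 9.92 CPM when fasted. The fasted values were below the fed values within each genotype, by small gaps. Angptl6 fell by 0.67 on the log2 scale in the mean of both genotypes (SE 0.15, adjusted p = 0.00442), or 1.60-fold (95% confidence interval 1.27 to 2.01). The change was -0.67 ± 0.22 in Nts+/+ and -0.68 ± 0.22 in Nts-/- livers, each with an adjusted p of 0.0473. These calls were lost without mouse 254, 257, 282 or 322 in Nts+/+ (adjusted p from 0.0647 to 0.201) and without mouse 284, 290, 295, 303 or 319 in Nts-/- livers (adjusted p from 0.0655 to 0.165). They were also lost with only the mice compared (0.0542 in Nts+/+ and 0.0510 in Nts-/-) and, in Nts-/-, with RLE factors, another scaling (0.0519). Angptl6 (ENSMUSG00000038742, chr9:20873809-20879727) overlaps A230050P20Rik, which was 14.2 to 39.7 CPM in fed and 11.0 to 27.0 CPM in fasted livers. The expected counts of Angptl6 held decimals in every mouse (377.03 in mouse 254), as when reads are divided between genes. The part of A230050P20Rik in the Angptl6 values was not tested.

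The opposite movement of Angptl4 and Angptl8 can be read within each mouse, free of scaling between libraries. For each Angptl8 count there were 8.22, 2.32 and 3.13 Angptl4 counts in Nts+/+ fed livers and 5.68, 18.6 and 23.8 in Nts+/+ fasted livers. In Nts-/- livers there were 5.04, 0.555 and 1.27 when fed and 32.5, 46.5 and 24.9 when fasted. These ratios are not per length, so they compare mice and not the levels of the genes with each other. All fasted livers except that of mouse 265 exceeded all fed livers.

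**Figure D2:**
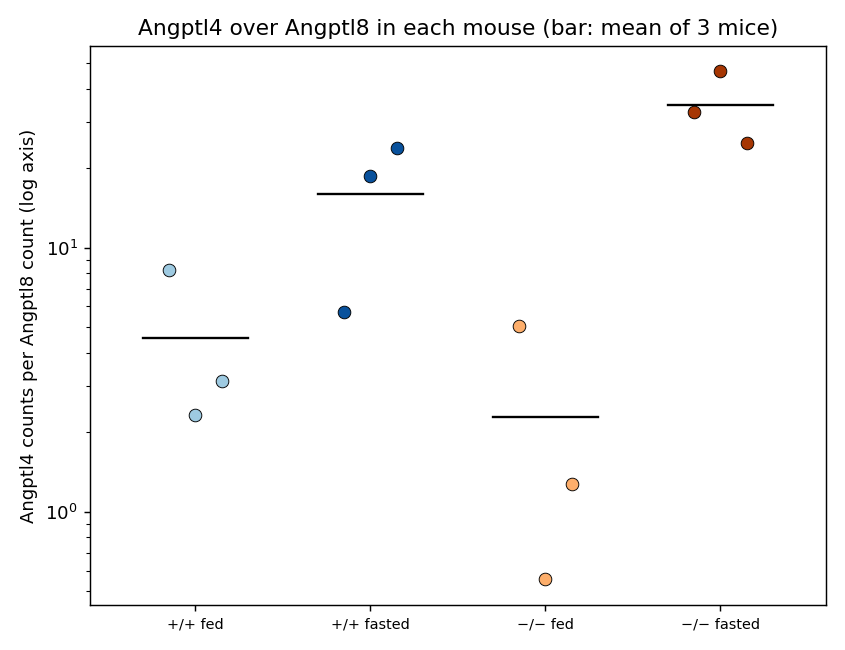
Angptl4 counts per Angptl8 count in each mouse, on a log y axis, by group on the x axis; points are mice and bars are means of 3 mice. The Nts-/- mice run from 0.555 to 5.04 when fed and from 24.9 to 46.5 when fasted, while the Nts+/+ groups overlap through mouse 254 (8.22) and mouse 265 (5.68).

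Neither fetuin passed the test for fasting. Fetub, which encodes fetuin-B, was 468, 481 and 487 CPM in Nts+/+ fed livers and 501, 594 and 597 CPM in Nts+/+ fasted livers. Mice labelled Nts-/- had 434, 394 and 521 CPM when fed and 596, 474 and 509 CPM when fasted. Only the Nts+/+ groups were without overlap. The log2 change of Fetub in the mean of both genotypes was 0.23 ± 0.10 (adjusted p = 0.0951), and it passed without mouse 319 (adjusted p = 0.0335). Fetub lies at chr16:22918382-22939766.

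Ahsg, which encodes fetuin-A, was 8478, 8309 and 9305 CPM in Nts+/+ fed livers and 8031, 8116 and 6977 CPM in Nts+/+ fasted livers. Mice labelled Nts-/- had 7694, 7445 and 8430 CPM when fed and 7642, 6975 and 9228 CPM when fasted. Each Nts+/+ fasted value was below each Nts+/+ fed value, while the highest and lowest Nts-/- values were both from fasted mice. Its log2 change in the mean of both genotypes was -0.08 ± 0.11 (adjusted p = 0.604), with a 95% confidence interval of -0.30 to 0.15. Ahsg lies at chr16:22892042-22899438, next to Fetub.

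Creb3l3, the only member that acts in the nucleus, was 261, 252 and 336 CPM in Nts+/+ fed livers and 449.9, 369 and 368 CPM in Nts+/+ fasted livers. The Nts-/- label gave 238, 159 and 299 CPM when fed and 391, 469 and 493 CPM when fasted. All fasted livers were above all fed livers. Creb3l3 rose by 0.72 ± 0.14 on the log2 scale in the mean of both genotypes (adjusted p = 0.00189), or 1.65-fold (95% confidence interval 1.33 to 2.04). The change was 0.48 ± 0.20 in Nts+/+ (adjusted p = 0.116), which did not pass, and 0.96 ± 0.20 in Nts-/- livers (adjusted p = 0.00664). Creb3l3 (ENSMUSG00000035041) lies at chr10:81084324-81098874.

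**Figure D3:**
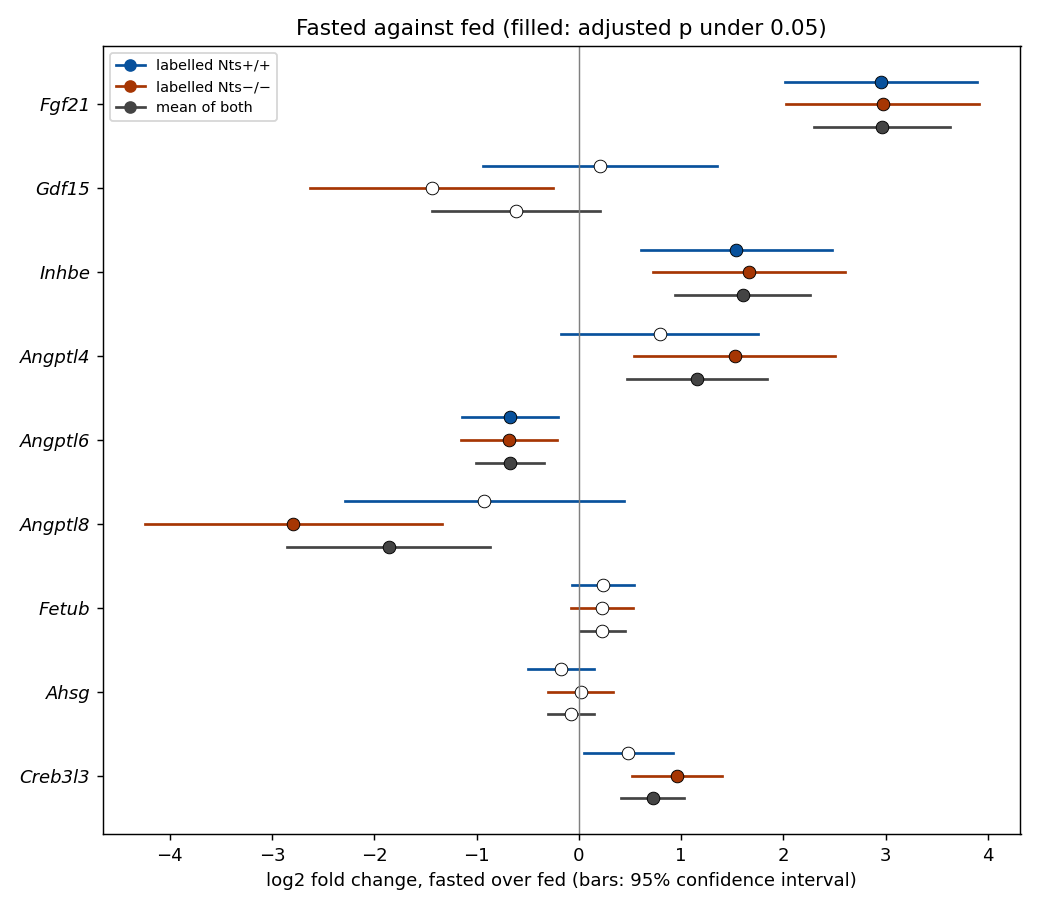
Log2 fold change of each gene, fasted over fed (x axis), in libraries labelled Nts+/+, in those labelled Nts-/- and in the mean of both; bars are 95% confidence intervals and filled points have an adjusted p under 0.05. Fgf21 sits at 2.96 in the mean of both, Angptl8 at -1.86 and Ahsg at -0.08.

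Counted within genotypes, 3 of the 9 genes passed in Nts+/+ livers (Fgf21 and Inhbe higher, Angptl6 lower) and 6 in Nts-/- livers (Fgf21, Inhbe, Angptl4 and Creb3l3 higher, Angptl6 and Angptl8 lower). Among all genes tested, 8.91% were higher and 9.19% lower in Nts+/+, and 7.70% were higher and 9.14% lower in Nts-/- livers. Leaving out 1 mouse gave 1 to 3 genes in Nts+/+, with 1 without mouse 254, 257 or 282, and 2 to 4 in Nts-/- livers, with 2 without mouse 284 or 290 and 3 without mouse 295. The different counts do not show that the genotypes differ, and that difference was tested directly, as given next.

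No member passed the test between genotypes. With edgeR, 0 of the 9 genes passed for Nts-/- against Nts+/+ in fed livers (smallest adjusted p = 0.819), in fasted livers (0.917), in the mean of both feeding states (0.839) or for the difference of the fasting response (0.897). Among all genes tested, 0% passed in each of these 4 comparisons. At an unadjusted p under 0.05 there were 876, 685, 859 and 663 genes, in the same order, of which 1 was a member, Gdf15 in fasted livers. DESeq2 called 12, 1, 15 and 2 genes and no member.

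Gdf15 was lower in fasted livers labelled Nts-/- by 1.29 on the log2 scale (-1.29 ± 0.53, unadjusted p = 0.0360, adjusted p = 0.917), and the groups overlapped through mouse 282. Its fasting response differed by -1.64 ± 0.74 between genotypes (unadjusted p = 0.0501, 95% confidence interval -3.29 to 0.00). Angptl8 had a genotype difference of -1.30 ± 0.62 in fasted livers (unadjusted p = 0.0660) with no overlap, and of 0.56 ± 0.59 in fed livers. Its fasting response differed by -1.87 ± 0.86 (unadjusted p = 0.0583, 95% confidence interval -3.81 to 0.08). Without mouse 265 these were -0.65 in fasted livers and -1.22 for the difference of the response, and without mouse 319 the latter was -1.27. Thus the largest estimates were those of Gdf15 and Angptl8, in the same direction, and neither passed the adjusted test. Angptl4 was lower in each Nts-/- fed liver than in each Nts+/+ fed liver, the nearest values being 118 and 119 CPM, at -0.65 ± 0.43 (adjusted p = 0.819). Without mouse 303 this difference was -0.23. The share of all genes without overlap between groups of 3 mice was not counted. Missing overlap of such groups, here and within genotypes above, is therefore a description only.

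For Fgf21 the estimate of the genotype difference in the fasting response was 0.01, with a 95% confidence interval of -1.24 to 1.27, which is a ratio of the Nts-/- to the Nts+/+ fasting response between 0.423 and 2.41. The interval was narrowest for the fetuins, at -0.44 to 0.42 for Fetub and -0.26 to 0.64 for Ahsg. For Creb3l3 it was -0.14 to 1.09, for Inhbe -1.17 to 1.42, for Angptl4 -0.62 to 2.09 and for Angptl6 -0.67 to 0.65. The targeted gene went against the labels, as given above, so the sign of each genotype difference rests on labels that Nts did not bear out.

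**Figure D4:**
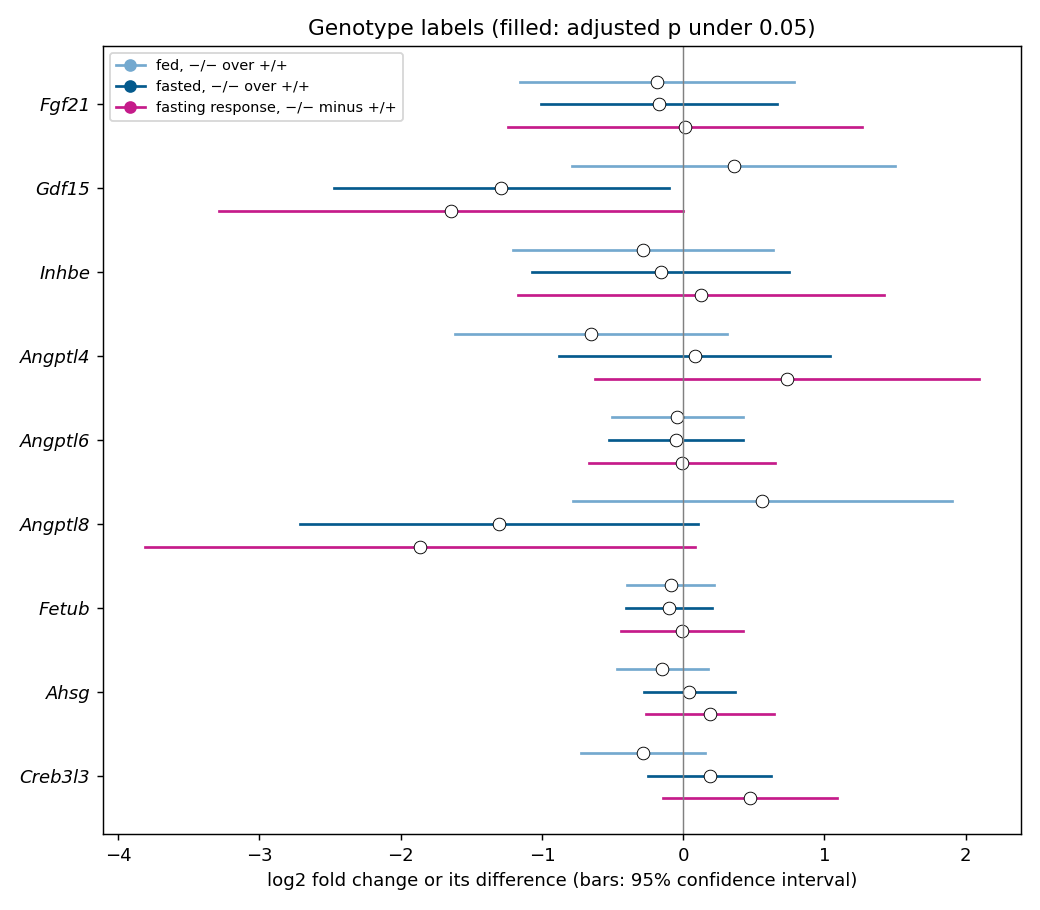
Log2 fold change of each gene between genotype labels in fed and in fasted livers, and the difference of the fasting response (x axis, Nts-/- over or minus Nts+/+); bars are 95% confidence intervals. No point is filled, since no adjusted p is under 0.05, and the intervals of Gdf15 and Angptl8 reach furthest from 0.

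Levels of different genes were compared as TMM-normalized CPM per kilobase of coding sequence. Counts cover whole transcripts, whereas the length is that of the longest coding sequence. Untranslated ends thus add reads but no length, so the ranks below are approximate. Ahsg led in all 4 groups (means from 6907 to 7793), followed by Fetub (386 to 484) and Creb3l3 (162 to 314). Fgf21 was last of the 9 in both fed groups, at 4.61 ± 1.95 in Nts+/+ and 4.04 ± 2.61 in Nts-/- livers (SD, n = 3), and sixth in both fasted groups, at 35.6 ± 4.26 and 31.5 ± 2.58. Angptl8 moved from 52.0 ± 21.8 and 76.9 ± 48.5 in the fed groups to 27.6 ± 17.8 and 11.0 ± 4.02 in the fasted groups. The ranges of Fgf21 and Angptl8 overlapped in Nts+/+ fasted livers, and not in Nts-/- fasted livers. Those of Gdf15 and Angptl6 overlapped in both fed groups and in Nts+/+ fasted livers.

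The receptors of these hormones were measured in the same livers, of which 9 of 12 listed genes were tested. In the mean of both genotypes 0 rose and 3 fell, with a median log2 change of 0.05. The 3 were Fgfr3 (-1.16 ± 0.12), Fgfr2 (-0.53 ± 0.10) and Fgfr4, the main hepatocyte FGF receptor (-0.33 ± 0.10). Klb, the gene of beta-Klotho, was 26.1 ± 1.73 and 27.6 ± 7.19 CPM in fed and 31.5 ± 0.64 and 31.0 ± 6.02 CPM in fasted livers (adjusted p = 0.202). Among 7 lipases and their helpers, 1 rose and 2 fell (median -0.11). Furin, a convertase that cleaves ANGPTL proteins and lipases, rose by 0.48 ± 0.10. Lipc, hepatic lipase, fell by 0.69, and Lmf1, a lipase maturation factor, fell by 0.32.

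Of 20 listed relatives of the members, 15 were tested, 4 rose and 3 fell (median 0.03). Creb3, a relative of Creb3l3, rose by 0.68 ± 0.10 and Hrg, histidine-rich glycoprotein, by 0.44 ± 0.09, while Angptl2 fell by 0.80 and Gdf2, which encodes BMP9, by 0.48. Inhbc, the activin C subunit, had a log2 change of 0.45 ± 0.19 (adjusted p = 0.0867).

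All 17 other secreted liver proteins on the list were tested, and 4 rose and 4 fell (median 0.05). Lcn2, lipocalin-2, rose by 2.57 ± 0.43, Igfbp2, a binding protein of insulin-like growth factors, by 1.31 ± 0.15 and Rbp4, the plasma retinol carrier, by 1.14 ± 0.11. Igf1, the growth factor made by the liver under growth hormone, fell by 0.68. Members and other hepatokines moved in both directions with fasting, as did all genes tested, of which 16.0% rose and 16.8% fell in the mean of both genotypes. The same shares stand beside the counts of the other lists in that mean.

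Targets of PPARα and CREBH in fasting rose almost as a block. This list and the others were chosen with earlier results of these data known, so the counts are a description. Of 19 genes, 18 rose and 0 fell in the mean of both genotypes (median 1.60, beside -0.01 over all genes tested). In Nts+/+ livers 16 rose, and in Nts-/- livers 18. Cidec, a lipid droplet protein, rose by 6.85 ± 0.36, Cyp4a14, a fatty acid hydroxylase, by 3.50 ± 0.19, Ehhadh, an enzyme of peroxisomal oxidation, by 2.90 ± 0.18 and Pex11a, a peroxisomal membrane protein, by 1.99 ± 0.15. Of 13 targets of insulin, SREBP1c and ChREBP, 10 fell and 1 rose (median -1.67). Acly fell by 2.57, Fasn by 2.44 and Acaca by 0.91, which are enzymes of fatty acid synthesis.

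Targets of the integrated stress response were mixed. Of 17 listed genes 16 were tested, 6 rose and 2 fell (median 0.33). Trib3 rose by 1.61 ± 0.22, Sesn2 by 0.80 ± 0.19 and Atf5 by 0.59 ± 0.13, while Aldh1l2 fell by 2.27. Of 15 regulators, 4 rose and 3 fell (median 0.02). Ppara itself rose by 0.75 ± 0.15, while Srebf1, the gene of SREBP1c, fell by 3.11, Mlxipl, the gene of ChREBP, by 1.45 and Nr3c1, the glucocorticoid receptor, by 0.47. Atf4 had a log2 change of -0.18 ± 0.10 (adjusted p = 0.201). The genes named passed with adjusted p under 0.05 unless a p is given.

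**Figure D5:**
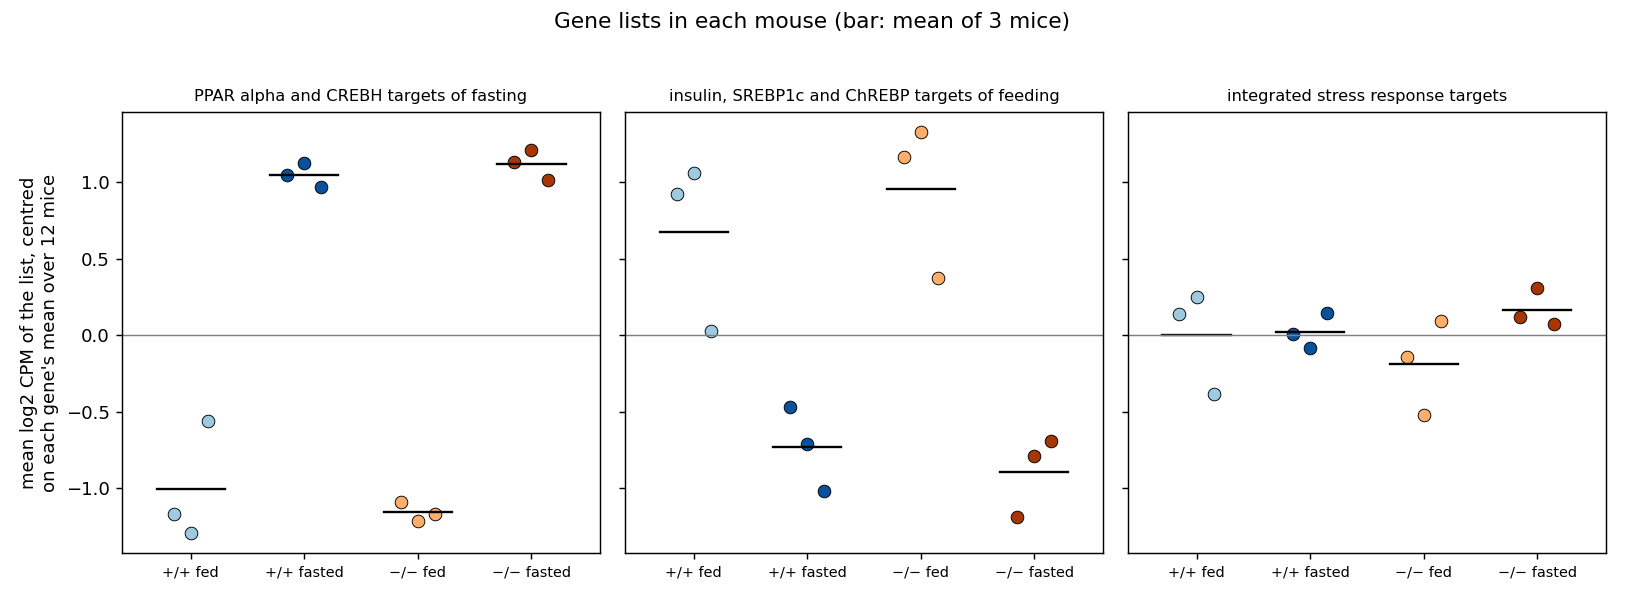
Mean log2 CPM of 3 gene lists in each mouse, centred on each gene's mean over the 12 mice (y axis), by group (x axis); points are mice and bars are means of 3 mice. The fasting targets lie between -1.29 and -0.56 in fed and between 0.97 and 1.22 in fasted mice, the feeding targets between 0.03 and 1.33 and between -1.19 and -0.47, and the stress targets overlap.

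Mouse 323 stood out among the fed mice in these lists. It had the highest mean of the fasting targets among the 6 fed mice (-0.56 on the centred log2 scale, against -1.29 to -1.09 in the others) and the lowest mean of the feeding targets (0.03, against 0.37 to 1.33). The same mouse had the highest Inhbe and Creb3l3 of the fed mice and the lowest Gdf15. Its Fgf21 was also the highest, at 4.21 CPM, but close to that of mouse 319, at 4.15 CPM. Its Angptl4, at 119 CPM, was the lowest of the Nts+/+ fed mice. Its Angptl8, at 38.1 CPM, was within the range of the other fed mice. Among fasted mice, mouse 265 had the highest mean of the feeding targets (-0.47) together with the highest Angptl8 and the lowest Angptl4, but also the highest Fgf21 and Inhbe. Without mouse 323 or mouse 265 the 6 calls in the mean of both genotypes remained.

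The genes whose pattern over the 12 mice was most like that of each responding member were taken as the 3 with the smallest root mean square difference of centred log2 CPM. For Fgf21 they were Acot1 (0.44), Fbp2 (0.49) and Cyp4a31 (0.52), where Fgf21 itself varied by 1.64. For Inhbe they were Mgll (0.29), Plin5 (0.31) and Mat1a (0.31), with 0.95 for Inhbe itself. For Angptl4 they were Pck1 (0.29), Slc25a47 (0.35) and Rufy4 (0.38), with 0.89 for Angptl4 itself. Creb3l3 was nearest to Sun2 (0.14), Apoa1 (0.16) and Creb3 (0.17), with 0.46 for itself, and Angptl6 to Hagh (0.13), Xrcc6bp1 (0.14) and Psph (0.15), with 0.41 for itself. Angptl8 had no near neighbour of this kind: Slc3a1 (0.64), Gadd45a (0.65) and Jph1 (0.66) differed from it by more, against its own 1.20. These values are descriptions over mice that share their groups.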

How the data were processed

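Liver RNA of 12 mice was sequenced. The authors deposited 1 table of expected counts, the estimated number of reads of each gene in each mouse, partly with decimals and without scaling. The submitters' processing notes name Trimmomatic, RSEM and GRCm38; versions, strand and library layout are not given in the sources used here. Columns of other samples number 0. The members and lists were chosen with earlier results of these data known.

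Expected counts were rounded. In R 4.3.3, edgeR 4.0.16 kept 13812 genes (filterByExpr), normalized with TMM and fitted all 12 mice with a mean per group by robust quasi-likelihood. Benjamini-Hochberg adjusted p under 0.05 over all genes tested was the threshold. Each library is a separate mouse, and every pair of a group differed in at least 98.0% of tested genes. Named genes are the 9 members, Nts, up to 4 genes with the smallest p per list among those past the threshold in the mean of both genotypes, and 3 genes nearest to each responding member, except that some listed genes are not reported here. Klb, Inhbc, Atf4, Dock6 and A230050P20Rik were named after their values were seen. Coding lengths came from GENCODE vM39 and were matched by Ensembl identifier, not by position, since its build differs from that of the table. Promoters came from RefSeq (GRCm38.p6).

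Alternatives were RLE, upper-quartile and total-count scaling, no filter, at least 10 counts in every mouse, DESeq2 1.42.0, only the mice compared, a minimum log2 change of 1 in either direction, and leaving out each mouse. On simulated data with these depths, for fasting in Nts+/+ livers, 54 of 100 genes changed 2-fold and 86 of 100 changed 4-fold were recovered, with 7 calls among 13612 unchanged genes (13636 genes in the fit). Only those genes were changed in the simulation, whereas 2501 of 13812 genes were called in the data for this comparison. The simulation therefore does not give the power of these data, and no genotype comparison was simulated. Floors of 3 counts cover counting error only.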

Additional observations from a re-analysis of the deposited data

Results flagged for a closer look

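Nts, the targeted gene, had a mean of 22.5 counts over the 6 libraries labelled Nts-/- and 0 counts in all 6 libraries labelled Nts+/+. It was looked at because it is no member and its signal lay in the libraries in which the labels say the gene was deleted. The difference between genotypes was not called by edgeR at an adjusted p under 0.05. Mean levels in Nts-/- libraries were low, at 1.09 CPM in fed and 0.383 CPM in fasted livers. With 0 counts in every Nts+/+ library, the log2 values that follow cannot be read as measured fold changes. In the mean of both feeding states the difference was 7.22 on the log2 scale (unadjusted p = 4.05e-06, adjusted p = 0.0560). It was 7.97 in fed livers (adjusted p = 0.304) and 6.47 in fasted livers (adjusted p = 0.917).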

How the results depend on the processing

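The 6 calls of fasting in the mean of both genotypes were kept under RLE, upper-quartile and total-count scaling, without a filter, with at least 10 counts in every mouse and with DESeq2. A minimum log2 change of 1 left 4 of them, by its construction. Leaving out 1 mouse gave 6 or 7 genes, the added one being Fetub without mouse 319. Within genotypes the same comparisons rest on 6 mice. There, leaving out 1 mouse gave 1 to 3 genes for Nts+/+ and 2 to 4 for Nts-/- (3 and 6 with all mice). The part of the smaller number of mice in this was not tested. Under the other alternatives the numbers were 2 to 3 and 4 to 6. No member passed in any genotype comparison under any alternative run.

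Signs turned only for estimates that had not passed. With upper-quartile factors, the log2 change of Ahsg with fasting in Nts-/- livers was -0.017 and the genotype difference of the fasting response of Fetub was 0.0018. With library totals alone, that of Ahsg was -0.15, the genotype difference of Angptl6 in fed livers 0.030 and the difference of the fasting response of Fgf21 -0.078. With at least 10 counts in every mouse, the difference of the fasting response was 0.0047 for Angptl6 and 0.0042 for Fetub. The cause was not tested.

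With 1 mouse left out, the ranges that included 0 were these. For fasting, Gdf15 in Nts+/+ ran from -0.17 to 0.64 and Ahsg in Nts-/- livers from -0.10 to 0.11. For genotype in fed livers, Fgf21 ran from -0.68 to 0.22, Gdf15 from -0.016 to 0.79, Inhbe from -0.56 to 0.40, Angptl6 from -0.30 to 0.18 and Angptl8 from -0.035 to 0.93. For genotype in fasted livers, Inhbe ran from -0.34 to 0.15, Angptl4 from -0.052 to 0.17, Angptl6 from -0.17 to 0.11 and Ahsg from -0.077 to 0.13. For genotype in the mean of both feeding states, Fgf21 ran from -0.43 to 0.025, Inhbe from -0.36 to 0.12, Angptl6 from -0.18 to 0.062 and Creb3l3 from -0.16 to 0.059. For the difference of the fasting response, Fgf21 ran from -0.38 to 0.51, Inhbe from -0.56 to 0.43, Angptl6 from -0.23 to 0.25 and Fetub from -0.12 to 0.11.

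No paired analysis was possible, since each library is a separate mouse and the labels used here name no litter. Litter was therefore not modelled. Each member had at least 24 counts in every mouse.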
